A study of Mus musculus with 12 samples.

Results

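The mitochondrial genome of the mouse carries 37 genes, and all of them are described here in liver. The members were the rows of the count table whose gene name begins with mt- in lower case. They numbered 37 of 57180 genes in the table, namely 13 protein-coding genes, 2 rRNA genes and 22 tRNA genes. Of these, 17 had enough counts to be tested (all 13 protein-coding genes, both rRNA genes and 2 tRNA genes), beside 19350 tested genes in all.

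The livers came from 12 mice in 4 groups, defined by genotype (Het or KO) and sex, with 3 mice per group. Each mouse lacked Csa (gene symbol Ercc8), a factor of transcription-coupled DNA repair, and had been injected at birth into the cerebral ventricles with AAV9-CSA, a vector that expresses human CSA from the ubiquitous chicken β-actin promoter. KO animals were CX mice killed at the humane endpoint. Het animals were littermates of the same age without signs of disease. The methods write the KO genotype as Csa-/- Xpa+/+ and that of Het mice as Csa-/- Xpa+/-, whereas the results define CX mice as Csa-/- Xpa-/-. Groups here follow the labels, which say KO or Het. Genotype and late disease went together in these groups and cannot be told apart. Values are given as CPM, counts scaled to a common library size with TMM factors, each liver being 1 mouse.

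Mitochondrial DNA is a small circle that is transcribed from both strands into long precursors. Most of its mRNAs and both rRNAs are flanked by tRNAs, and the precursor is cut at the tRNAs to release the mature RNAs. The 13 mRNAs encode membrane subunits of complexes I, III, IV and V of the respiratory chain, whose other subunits are nuclear, and the rRNAs and tRNAs serve the ribosome that translates these mRNAs inside the organelle. Once cut, the RNAs have their own stabilities, so that RNAs of a common precursor can have unequal levels. Hepatocytes are rich in mitochondria, and mitochondrial RNA is abundant in liver.

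The compact layout of this genome bears on how the counts can be read, and the junctions behind the results below are shown for that reason. All sequences are from the GRCm39 reference, written 5′ to 3′, and chrM has 16299 bases in it. mt-Atp8 and mt-Atp6 are read from the same RNA and share 43 bases, given in capitals in chrM:7907-7989 (plus strand), so their reads are divided by the quantifier. mt-Nd5 and mt-Nd6 lie on opposite strands and share 14 bases, in capitals in chrM:13522-13595 (plus strand), where only stranded libraries such as these separate them. mt-Tm, the tRNA with the most counts, ends at the base before mt-Nd2 begins, and its bases are in capitals in chrM:3845-3943 (plus strand). mt-Ts1, the other tRNA tested, is on the minus strand at chrM:6870-6938, and the bases in capitals are antisense to the end of mt-Co1.
mt-Atp8/mt-Atp6: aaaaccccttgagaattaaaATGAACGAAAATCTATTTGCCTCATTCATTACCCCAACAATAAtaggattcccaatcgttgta
mt-Nd5/mt-Nd6: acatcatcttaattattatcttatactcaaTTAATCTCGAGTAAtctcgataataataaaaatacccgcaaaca
mt-Tm and the start of mt-Nd2: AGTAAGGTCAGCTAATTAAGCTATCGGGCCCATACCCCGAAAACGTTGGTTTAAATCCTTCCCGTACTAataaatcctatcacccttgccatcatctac
mt-Ts1: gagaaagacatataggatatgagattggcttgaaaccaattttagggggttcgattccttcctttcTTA

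A copy of mitochondrial DNA in the nuclear genome takes part in the same counts. The interval chr1:24650616-24655269 (minus strand) holds a copy of chrM bases 6390 to 11042 with an identity of 99.936% over 4654 aligned bases. It differs from the mitochondrial reference by 2 substitutions and 1 inserted base. The substitutions are A6393T in mt-Co1 and T9461C in mt-Nd3, numbered on the plus strand of chrM with the mitochondrial base first. The bases around T9461C are shown, with the differing base in capitals, because apart from such positions a read from either locus has the same sequence. The mitochondrial stretch is chrM:9431-9491 (plus strand) and the nuclear stretch is chr1:24652168-24652228 (minus strand).
mitochondrial DNA at T9461C: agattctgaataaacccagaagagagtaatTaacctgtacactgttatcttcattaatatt
nuclear copy at T9461C: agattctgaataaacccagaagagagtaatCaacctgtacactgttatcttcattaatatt

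Xpa was lower in KO than in Het livers (log2 fold change -1.83, adjusted p = 4.14e-05), and Ercc8 was higher (1.62, adjusted p = 0.000156), both by edgeR's quasi-likelihood F test. Each mouse lacked Csa, so the Ercc8 value is not read as more Csa, and the source of its counts was not tested. Between 30044781 and 43634046 counts were assigned to genes in each liver. Of the 19350 genes tested over both sexes, 22.4% were called at an adjusted p under 0.05, with 12.2% higher and 10.2% lower in KO livers, and the median log2 fold change of all genes was 0.02.

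Mitochondrial transcripts made up a somewhat smaller share of the counts in KO than in Het livers, with overlap. In Het females the share was 5.65%, 6.64% and 5.81%, and in Het males it was 6.71%, 6.02% and 5.99%. In KO females it was 5.21%, 5.49% and 5.94%, and in KO males 5.81%, 4.62% and 6.002%. Of the 6 KO livers, 3 lay under the lowest Het liver, and no KO liver reached the upper 3 of the Het group. The mean was 6.14% ± 0.440 in Het and 5.51% ± 0.527 in KO livers (SD, n = 6 each), a difference of -0.622 percentage points, for which no test was made. The 13 mRNAs gave 2.60% to 3.68% of the counts in Het livers and 2.63% to 3.01% in KO livers, and the rRNAs gave 2.45% to 3.496% and 1.75% to 3.25%. KO_M_122, the liver with the lowest share, had 1.75% rRNA and 2.87% mRNA. Without the 2 rRNA genes, the mitochondrial share was 3.19% ± 0.386 in Het and 2.87% ± 0.137 in KO livers. In TPM, the deposited unit that corrects for length, the share of all mitochondrial genes was 4.34% ± 0.367 and 3.91% ± 0.447. In these bulk livers, cell composition, mitochondrial RNA per cell and rRNA depletion cannot be told apart as sources of this share, and none was tested.

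Over both sexes, 1 of the 13 mRNAs, mt-Nd2, fell in KO livers and none rose, beside a background of 10.2% of all genes called lower. No rRNA and neither tRNA was called. By unadjusted p under 0.05, 4 of the 17 genes were lower (mt-Nd2, mt-Co3, mt-Nd3 and mt-Tm), beside 16.8% of all genes, a count that was 2 without Het_M_119 and 6 without Het_F_126, and DESeq2 called 3 genes lower (mt-Nd2, mt-Nd3 and mt-Tm), beside 12.2% of all genes by that test. The median log2 fold change of the 13 mRNAs was -0.16, and 10 of them had values below 0. These mRNAs come from shared precursors and are not separate observations of the condition.

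**Figure D1:**
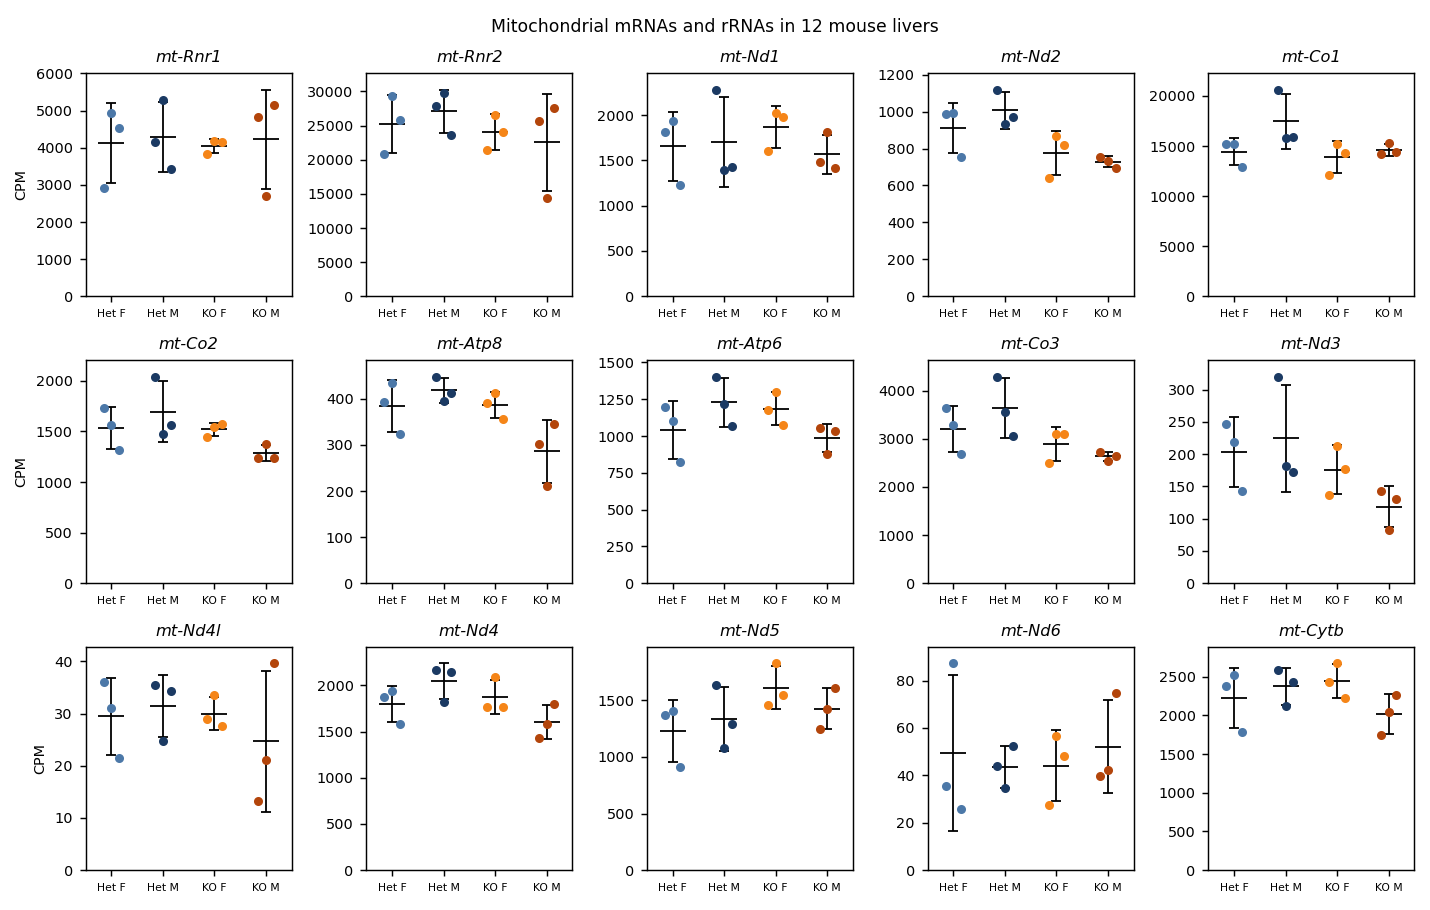
Level of the 13 mitochondrial mRNAs and the 2 rRNAs in each liver, in CPM, by group (F, females; M, males). Points are livers, and bars are the mean and SD of 3 mice. Over both sexes the genotypes overlap for every gene. In males all KO livers lie below all Het livers for mt-Nd2 (KO 696 to 756 CPM), mt-Co1, mt-Co2, mt-Atp8, mt-Atp6, mt-Co3, mt-Nd3 and mt-Nd4. In females mt-Nd5 alone has all KO livers above all Het livers. Such orders held for 15.4% and 15.8% of all genes.

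Complex I, which takes electrons from NADH, has 7 mitochondrial subunits, and its mRNAs did not move together. mt-Nd2 encodes an antiporter-like subunit of the proton-pumping membrane arm. It measured 985, 993 and 753 CPM in Het females, 1118, 932 and 969 CPM in Het males, 640.2, 870.3 and 818 CPM in KO females, and 756, 734 and 696 CPM in KO males. Het_F_126 was the lowest Het liver and lay among the KO livers, 3 of which were lower still, while in males the genotypes did not overlap. The log2 fold change was -0.35 (95% confidence interval -0.60 to -0.10, adjusted p = 0.0490), which is close to the threshold, and the call was lost under 15 of 27 alternative settings. It was lost when any mouse but Het_F_126 or KO_F_112 was left out, with adjusted p from 0.0522 (without KO_F_123) to 0.0970 (without Het_M_119).

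mt-Nd3, a small subunit where the membrane and peripheral arms meet, had the most negative log2 fold change of the 13 mRNAs, -0.56 (-1.02 to -0.11), at an adjusted p of 0.0723. Its level was 247, 219 and 142 CPM in Het females and 320.0, 182 and 172 CPM in Het males. It was 137.04, 213 and 177 CPM in KO females and 143, 83.1 and 130.4 CPM in KO males. Values in KO males were all under those in Het males, and the females overlapped. When the counts of its nuclear copy were added, the log2 fold change was -0.48 (adjusted p = 0.0673).

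mt-Nd5, another antiporter-like subunit of the membrane arm, had a positive value. Its level was 1373, 1406 and 914 CPM in Het females, 1637, 1077 and 1296 CPM in Het males, 1460.3, 1826 and 1551 CPM in KO females, and 1248, 1426 and 1609 CPM in KO males. All 3 KO females were above the 3 Het females, and the males overlapped. The log2 fold change of 0.24 (-0.08 to 0.56) did not pass the test (adjusted p = 0.262). The other complex I mRNAs gave log2 fold changes of 0.03 for mt-Nd1, -0.14 for mt-Nd4, -0.16 for mt-Nd4l and 0.05 for mt-Nd6, with adjusted p from 0.381 to 0.935, and all of their intervals included 0.

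Complex III passes electrons from ubiquinol to cytochrome c, and mt-Cytb is its only mitochondrial subunit. mt-Cytb ranged from 1786 to 2586 CPM in Het livers and from 1747 to 2670.0 CPM in KO livers. Its log2 fold change was -0.05 (-0.32 to 0.22, adjusted p = 0.801).

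Complex IV, cytochrome c oxidase, reduces oxygen, and mt-Co1, mt-Co2 and mt-Co3 form its core. mt-Co3 was 3643, 3297 and 2685 CPM in Het females and 4294, 3549 and 3059 CPM in Het males. It was 2489, 3109 and 3092 CPM in KO females and 2730.4, 2550 and 2635 CPM in KO males. The KO males lay under the Het males and the females overlapped, and the log2 fold change of -0.30 (-0.58 to -0.03) had an adjusted p of 0.105. mt-Co1, which carries the haem and copper site where oxygen is reduced, gave -0.16 (-0.43 to 0.12, adjusted p = 0.402), and mt-Co2, which receives electrons from cytochrome c, gave -0.21 (-0.46 to 0.05, adjusted p = 0.222). Values of mt-Co1 ran from 12882 to 20621 CPM in Het livers and from 12092 to 15275 CPM in KO livers.

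Complex V, the ATP synthase, has mt-Atp6 and mt-Atp8 in its membrane part. mt-Atp8 was 394, 435 and 323 CPM in Het females, 448, 395 and 412 CPM in Het males, 390.2, 414 and 357 CPM in KO females, and 301, 211 and 346 CPM in KO males. KO males were the lowest group and did not overlap Het males, with KO_M_122 the lowest liver. Over both sexes the log2 fold change was -0.27 (-0.55 to 0.01, adjusted p = 0.152), and that of mt-Atp6, which forms the proton channel, was -0.06 (adjusted p = 0.747). In counts per kilobase, the ratio of mt-Atp8 to mt-Atp6, which share an RNA, lay between 1.07 and 1.31 in Het livers and between 0.804 and 1.12 in KO livers. With the counts of the nuclear copy of mt-Atp6 added, it lay between 0.525 and 0.588 in Het livers and between 0.319 and 0.553 in KO livers.

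**Figure D2:**
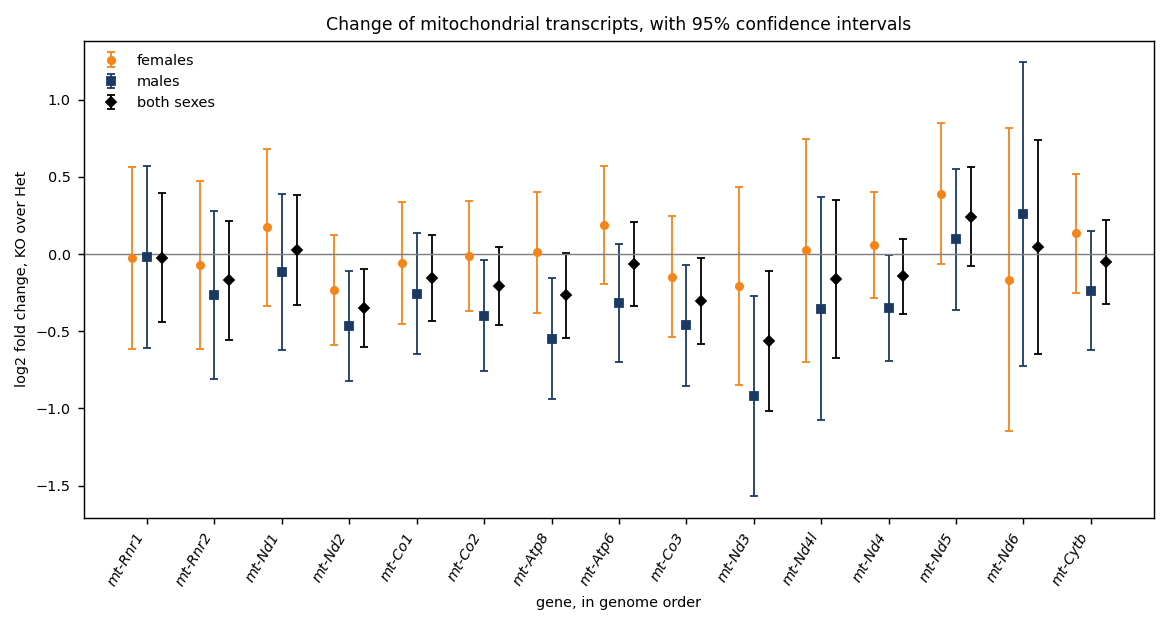
Log2 fold change of KO over Het livers for the mRNAs and rRNAs in genome order, in females, males and both sexes. Bars are 95% confidence intervals of edgeR's fit; most include 0, values in males are mostly under those in females, and mt-Nd5 is above 0 in all 3 series.

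The sexes were then taken apart. In females no mitochondrial gene was called by edgeR or DESeq2, whereas edgeR called 11% of all genes. Only mt-Tm was lower by unadjusted p under 0.05, as were 13.8% of all genes, and it was not without Het_F_111, Het_F_115 or KO_F_112. The median log2 fold change of the 13 mRNAs was 0.01 in females, with 7 above 0. In males no gene was called by edgeR, and 6 mRNAs (mt-Nd2, mt-Co2, mt-Atp8, mt-Co3, mt-Nd3 and mt-Nd4) were lower by unadjusted p, where 7.45% of all genes were called and 10.7% were lower by unadjusted p. The count by unadjusted p was 1 without Het_M_119 and 4 without KO_M_118 or without KO_M_122. It was 4 with scaling by library size alone and 5 with the counts of the nuclear copies added. DESeq2 called 3 of the 6 mRNAs lower in males, mt-Atp8, mt-Nd2 and mt-Nd3, and 5.13% of all genes. The median over the 13 mRNAs was -0.35 in males, with 11 below 0.

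For 8 of the 13 mRNAs the 3 KO males lay below the 3 Het males (mt-Nd2, mt-Co1, mt-Co2, mt-Atp8, mt-Atp6, mt-Co3, mt-Nd3 and mt-Nd4), which held for 15.4% of all genes, and for none were they above (16.8% of all genes). In females no mRNA was placed so (14.7% of all genes), and mt-Nd5 was the only mRNA with all KO above all Het livers (15.8% of all genes). These orders are in CPM and depend on the unit. In TPM, KO and Het males overlapped for mt-Co1, mt-Atp6 and mt-Nd4. For mt-Co1 the TPM values were 7435 to 9470 in Het males and 7278 to 7574 in KO males. The difference between the sexes did not pass its own test. For the interaction of genotype and sex, edgeR and DESeq2 called no mitochondrial gene, 0.0465% of all genes were called by edgeR, and mt-Atp8 alone was lower at an unadjusted p under 0.05 by edgeR (4.34% of all genes). The interaction values of 12 of the 13 mRNAs were below 0, with a median of -0.37. Het_M_119 had the highest CPM of the 12 livers for mt-Nd1, mt-Nd2, mt-Co1, mt-Co2, mt-Atp8, mt-Atp6, mt-Co3, mt-Nd3 and mt-Nd4. Between males and females over both genotypes, no mitochondrial gene was called by edgeR or DESeq2 and 0 had an unadjusted p under 0.05, while 1.02% of all genes were called and 13.8% had such an unadjusted p.

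No mitochondrial gene had all 6 KO livers above or all 6 below the 6 Het livers, which held for 4.72% and 4.64% of all genes. Ratios between 2 mRNAs of a liver were looked at as well. Of the 78 pairs of the 13 mRNAs, the genotypes did not overlap for 7, or 8.97%, and over all pairs of the 17944 tested genes with a count in every liver they did not overlap for 8.59%. The share among the mitochondrial pairs is near that background and is no result about them. The ratio of mt-Nd5 to mt-Nd2 CPM, which does not depend on library scaling, was 1.39, 1.42 and 1.21 in Het females and 1.46, 1.16 and 1.34 in Het males. It was 2.28, 2.10 and 1.90 in KO females and 1.65, 1.94 and 2.31 in KO males. Every KO liver was above every Het liver. The mean ratio was 1.33 ± 0.121 in Het and 2.03 ± 0.251 in KO livers (SD, n = 6 each), that is, 1.53-fold higher in KO livers, and it stayed between 1.48-fold and 1.58-fold when any mouse was left out. In TPM the ratios were also apart and 1.53-fold higher, but TPM comes from the same counts and is no separate support.

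This pair was chosen from the 78 after its values were seen, so no test is given and the order of its livers is a description. Of the 7 pairs, 6 held mt-Nd5 and so share its counts (with mt-Nd2, mt-Co2, mt-Atp8, mt-Co3, mt-Nd3 and mt-Nd4), and the remaining pair was mt-Nd1 with mt-Nd3. As a share of all mitochondrial mRNA CPM, mt-Nd5 took 3.58% to 4.57% in Het livers and 4.73% to 5.83% in KO livers, and mt-Nd2 took 2.868% to 3.23% in Het livers and 2.49% to 2.866% in KO livers, the latter nearly touching. With the nuclear copies added, 11 of the 78 pairs (14.1%) did not overlap, 7 of them with mt-Nd5, beside the same 8.59%. Neither mt-Nd5 nor mt-Nd2 has an annotated copy in the chromosome 1 interval, but partial copies lie elsewhere. Gm13339 on chromosome 2, which copies part of mt-Nd2, had 3 to 7 counts per liver, and Gm4076 on chromosome 13 and Gm11407 on chromosome 4, which copy parts of mt-Nd5, had 2 to 9 and 0 to 1.

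**Figure D3:**
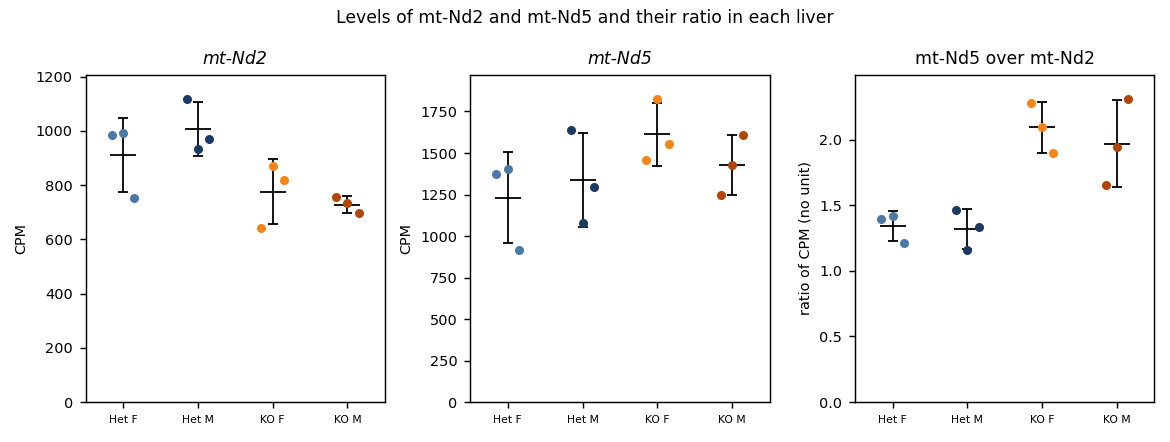
CPM of mt-Nd2 and mt-Nd5 and the ratio of the 2 in each liver, by group. Points are livers and bars the mean and SD of 3 mice; each level overlaps between genotypes, while the ratios of the 6 Het livers (1.16 to 1.46) lie below those of the 6 KO livers (1.65 to 2.31).

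mt-Nd6 is the only mRNA of the other strand and the least abundant of the 13 per kilobase. It was 35.4, 87.2 and 25.6 CPM in Het females, 43.7, 34.5 and 52.3 CPM in Het males, 27.4, 56.5 and 48.0 CPM in KO females, and 39.5, 42.3 and 74.6 CPM in KO males. The spread within groups was wide and the genotypes overlapped fully. It gave 0.104% to 0.284% of mitochondrial mRNA counts in Het livers and 0.106% to 0.270% in KO livers, and its log2 fold change of 0.05 had an interval from -0.65 to 0.74.

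The rRNA kit removes rRNA of the cytoplasm and of mitochondria, so mt-Rnr1 (small subunit) and mt-Rnr2 (large subunit) show what remained after depletion. mt-Rnr1 ranged from 2909 to 5281 CPM in Het livers and from 2689 to 5153 CPM in KO livers, and mt-Rnr2 from 20811 to 29723 CPM and from 14455 to 27518 CPM. Their log2 fold changes were -0.02 (-0.44 to 0.39, adjusted p = 0.943) and -0.17 (-0.55 to 0.22, adjusted p = 0.526). KO_M_122 was lowest for both.

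Residual cytoplasmic rRNA was lowest and highest in the same livers as mt-Rnr1, and only in part in those of mt-Rnr2. The 3 livers with the lowest counts of Rn18s-rs5, a nuclear rRNA gene (Het_F_111, KO_M_122 and Het_M_137 at 634, 660 and 996 CPM), were the 3 with the lowest mt-Rnr1. Those with the highest (Het_M_125, KO_M_136 and Het_F_115 at 14711, 11116 and 7702 CPM) were the 3 with the highest mt-Rnr1. For mt-Rnr2 the 3 lowest livers were KO_M_122, Het_F_111 and KO_F_108 (14455, 20811 and 21389 CPM). Its 3 highest were Het_M_125, Het_F_115 and Het_M_119 (29723, 29275 and 27925 CPM). The part of depletion in the rRNA levels was not tested.

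tRNAs, short and heavily modified RNAs that such libraries are not made to capture, were close to absent. The 22 tRNA genes together had 13 to 50 counts per liver. mt-Tm had 222 counts over the 12 livers, mt-Ts1 45, mt-Th 33, mt-Te 24, mt-Tv 23 and mt-Tw 10. Of the other 16, 9 had 1 to 9 counts in all and 7 (mt-Tf, mt-Ti, mt-Ty, mt-Td, mt-Tr, mt-Ts2 and mt-Tl2) had none.

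mt-Tm, the methionine tRNA printed above with mt-Nd2, was the only tRNA found in numbers. It had 25, 33 and 20 counts in Het females, 32, 13 and 23 in Het males, 12, 2 and 14 in KO females, and 19, 9 and 20 in KO males. KO females lay below Het females and the males overlapped. The log2 fold change was -0.92 (-1.64 to -0.20, adjusted p = 0.0651), and DESeq2 called it. mt-Ts1 had 2 to 7 counts per liver and a log2 fold change of -0.31 (-0.89 to 0.28). At these counts no difference in a tRNA passed edgeR's test.

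The nuclear copy on chromosome 1 received many of the counts. It has 7 annotated genes in the table, each on the minus strand. Gm28437 (chr1:24652270-24653052) covers 99.87% of mt-Co3, Gm28661 (chr1:24653966-24654646) 99.56% of mt-Co2, Gm10925 (chr1:24653055-24653732) 99.56% of mt-Atp6, and Gm28438 (chr1:24651856-24652200) 99.14% of mt-Nd3. Gm29216 (chr1:24654787-24655278) covers 31.26% of mt-Co1, and Gm10222 and Gm28439 cover 98.99% of mt-Nd4l and 63.57% of mt-Nd4. mt-Atp8 lies in the interval without an annotated copy.

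The median share of the counts of gene and copy together that was given to the copy was 52.0% for mt-Co2, 51.9% for mt-Nd3, 51.0% for mt-Atp6, 60.5% for mt-Nd4l and 39.1% for mt-Co3. It was 6.95% for mt-Co1 and 0.469% for mt-Nd4. The 7 copies held 0.576% to 0.688% of all counts in Het livers and 0.486% to 0.630% in KO livers. Levels of these 7 mitochondrial genes are therefore uncertain. Log2 fold changes over both sexes, ratios between mRNAs and levels between genes are given with the copies added as well. Shares of all counts and most results by sex are without the copies.

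Counts assigned to Gm29216 were higher in KO livers (log2 fold change 0.50, adjusted p = 0.00483 by edgeR). Reads that match both loci are divided by a model. More RNA from the copy and a different division of mt-Co1 reads cannot be told apart here, and neither was tested. Of the 7 mitochondrial genes with a copy, 6, including mt-Co1, had values below 0 also after the sum. The share of Gm29216 in the counts of mt-Co1 and copy was 6.18%, 5.10% and 6.83% in Het females and 4.29%, 5.24% and 4.94% in Het males. It was 9.73%, 8.72% and 8.21% in KO females and 7.07%, 7.66% and 8.08% in KO males. All 6 KO livers were above all 6 Het livers in this share and in the CPM of Gm29216, an order that 4.72% of all genes had in CPM. The other 6 copies were not called over both sexes. In males alone, edgeR called Gm28437, the copy of mt-Co3, lower (-0.64, adjusted p = 0.0460), beside 7.45% of all genes called. Added to its gene, mt-Co1 had a log2 fold change of -0.12, mt-Co3 -0.34 (adjusted p = 0.0635), mt-Co2 -0.15, mt-Atp6 -0.12, mt-Nd4 -0.15 and mt-Nd4l 0.02. mt-Nd2, which has no copy there, remained called in that fit (-0.36, adjusted p = 0.0433).

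**Figure D4:**
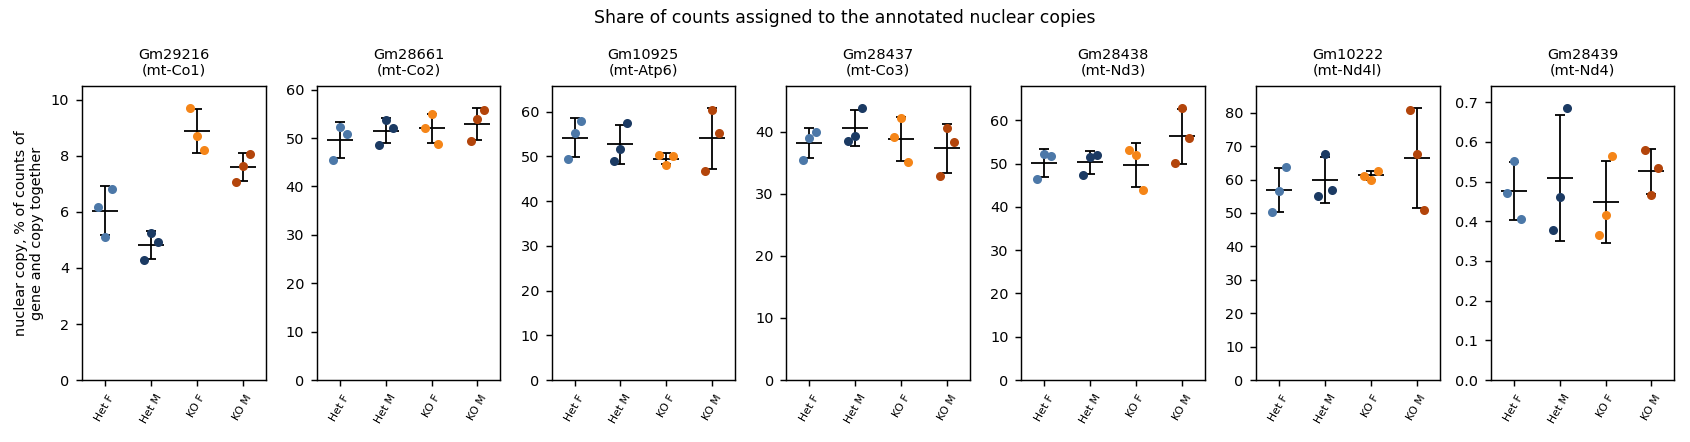
Counts assigned to each annotated nuclear copy as a percentage of the counts of the copy and its mitochondrial gene together (named in brackets), by group. Points are livers and bars the mean and SD of 3 mice, each panel has its own axis from 0, and for Gm29216 alone the KO livers (7.07% to 9.73%) lie above the Het livers (4.29% to 6.83%).

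Levels between genes were compared per kilobase of gene, as mean CPM per kilobase over the 12 livers ± SD. mt-Rnr2 was first at 15631 ± 2714 and mt-Co1 followed at 9771 ± 1347, above mt-Rnr1 at 4367 ± 883 in all 12 livers. mt-Co3 (3947 ± 684) was above mt-Co2 (2207 ± 327) in all 12. Then came mt-Cytb (1980.2), mt-Atp8 (1809), mt-Nd1 (1775) and mt-Atp6 (1631), which changed places with a neighbour in some livers.

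The complex I mRNAs made up most of the lower end. mt-Nd4 (1329) was below mt-Atp6 and above mt-Nd2 (824) in all 12 livers, and mt-Nd5 (769), mt-Nd3 (518), mt-Nd4l (97.4) and mt-Nd6 (91.1) followed. Of neighbours in this order, mt-Nd2 was above mt-Nd5 in all 6 Het livers and in 1 of 6 KO livers (KO_M_118), and mt-Nd4l was above mt-Nd6 in 5 of 6 Het and 3 of 6 KO livers. With the copies added, mt-Co3 (6453), mt-Co2 (4548) and mt-Atp6 (3438) moved up, mt-Nd3 (1057) moved above mt-Nd2 and mt-Nd5, and mt-Nd4l (248) kept its place above mt-Nd6. In TPM, which divides by an effective length that is short for small genes, mt-Atp8 was the third.

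The nuclear subunits of the same complexes were lower in KO livers in part. Of 37 nuclear complex I genes tested, 16 fell and none rose, with a median log2 fold change of -0.26, where 10.2% of all genes were called lower and 12.2% higher. Ndufb1, Ndufb2 and Ndufb3, accessory subunits of the membrane arm, gave -0.61, -0.51 and -0.56 (adjusted p = 0.00181, 0.00212 and 0.00322). Of 9 complex III genes 2 fell (Uqcrb, -0.49, and Uqcrc2, -0.34), of 12 complex IV genes 4 fell (Cox6b1, -0.48, first) and of 18 complex V genes 9 fell (Atp5pf, -0.41, first), beside the same 10.2%. None of these rose. The medians were -0.21, -0.22 and -0.24 beside 0.02 over all genes tested, and these lists were chosen with results of these data known.

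Proteins of the mitochondrial ribosome are nuclear as well. Of 78 Mrpl and Mrps genes, which encode them, 20 fell and 1 rose (Mrpl23), beside 10.2% of all genes lower and 12.2% higher, with a median of -0.19. Mrpl1, Mrpl39 and Mrpl14 gave -0.70, -0.54 and -0.85 (adjusted p = 0.000740, 0.00123 and 0.00265). The 2 mitochondrial rRNAs of that ribosome were not called.

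**Figure D5:**
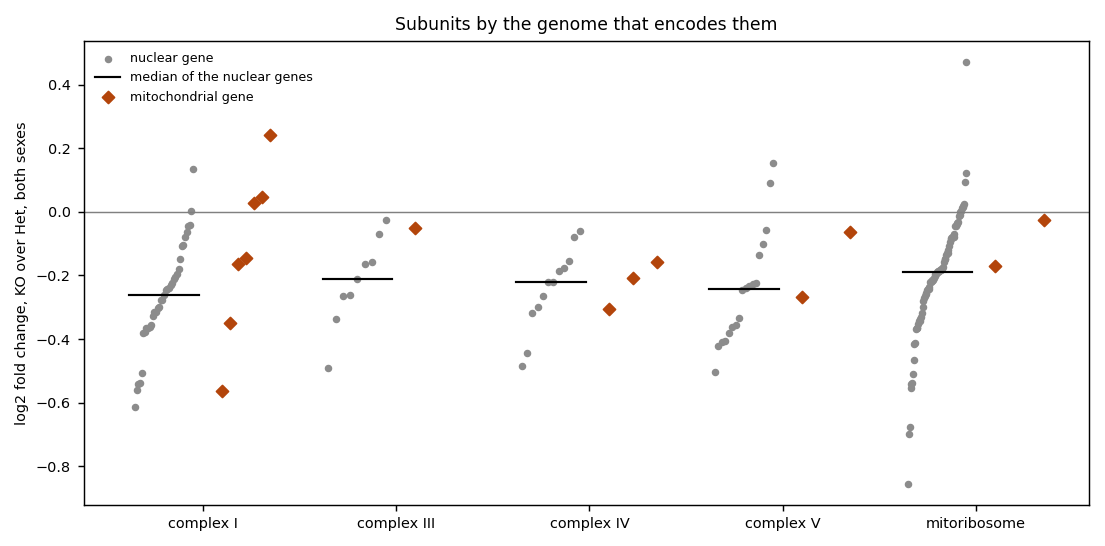
Log2 fold change of KO over Het livers, both sexes, for nuclear genes (grey, with their median as a line) and mitochondrial genes (diamonds) of each respiratory complex and of the mitochondrial ribosome. The nuclear medians lie between -0.26 and -0.19, and the mitochondrial values range from -0.56 for mt-Nd3 to 0.24 for mt-Nd5.

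Genes that make and mature mitochondrial RNA were taken from lists, to be read beside 12.2% of all genes called higher and 10.2% lower. Of 17 genes for transcription and its regulators, 1 fell, Tfam, which packages mitochondrial DNA and starts its transcription (-0.26, adjusted p = 0.0438). Polrmt, the RNA polymerase, gave 0.10, Tfb2m, its initiation partner, 0.02, and Tefm, its elongation factor, -0.23, with adjusted p from 0.238 to 0.934. Ppargc1a, a coactivator of mitochondrial biogenesis, was 91.1 ± 76.3 CPM in KO and 24.8 ± 17.8 CPM in Het livers (SD, n = 6 each, adjusted p = 0.0704), and Mterf4, which acts on the large ribosomal subunit, gave -0.23 (adjusted p = 0.105). Of 21 genes for replication and nucleotide supply, 1 fell (Mgme1, an exonuclease, -0.81, adjusted p = 0.00767) and 1 rose (Rnaseh1, which removes RNA from hybrids with DNA, 0.36, adjusted p = 0.0484), while Atad3a gave 0.27 (adjusted p = 0.0649).

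Of 27 genes for RNA processing, stability and decay, 4 fell and 1 rose (Angel2), beside 10.2% of all genes lower and 12.2% higher. Lrpprc, which stabilises mitochondrial mRNAs, fell from 142 ± 14.3 to 106 ± 13.7 CPM (SD, n = 6 each, log2 fold change -0.41, adjusted p = 0.0118). Supv3l1, the helicase of the mitochondrial RNA degradation complex, gave -0.40 (adjusted p = 0.00904), and Fastkd5, which is needed to process precursors that lack flanking tRNAs, gave -0.61 (adjusted p = 0.0150). Prorp, the nuclease of mitochondrial RNase P that cuts the 5′ ends of tRNAs, fell as well (-0.33, adjusted p = 0.0251).

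Of 18 genes for tRNA maturation and modification, 2 fell (Mto1, -0.57, and Mettl8, -0.44) and 1 rose (Gtpbp3, 0.46), and Mto1 and Gtpbp3 act together on the wobble base. Of 11 genes for rRNA modification and assembly, 2 rose (Mpv17l2, 0.50, and Mettl15, 0.55), and Mrm2, a methyltransferase of the large rRNA, gave -0.45 (adjusted p = 0.0720). Of 21 aminoacyl-tRNA synthetase and charging genes, 3 fell (Fars2, -0.54, Hars2, -0.51, and Gatb, -0.42) and 2 rose (Pars2 and Ears2). Of 14 translation factors, 2 fell (Gfm2, -0.29, and Tufm, -0.25), and Mtrf1l gave -0.38 (adjusted p = 0.0519). Each of these 7 lists held 0 to 2 genes called higher and 0 to 4 called lower, with medians from -0.21 to 0.15 beside 0.02 for all genes tested. Of all genes tested, 12.2% were called higher and 10.2% lower.

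Some markers of other liver cells moved with genotype, to be read beside 12.2% of all genes called higher and 10.2% lower. Of 10 Kupffer cell and macrophage markers, 6 rose and none fell, and their summed level was 304 to 391 CPM in Het females, 147 to 200 CPM in Het males, 385 to 611 CPM in KO females and 205 to 586 CPM in KO males. Of 8 endothelial markers 4 fell (338 to 432, 228 to 321, 207 to 291 and 184 to 308 CPM in the same order of groups), and of 9 stellate cell and fibroblast markers 2 fell, Reln and Lrat (368 to 469, 258 to 378, 132 to 180.4 and 132 to 290.3 CPM). All members of these 3 lists passed the filter on low counts. Of 9 hepatocyte markers tested, Serpina1c and Ttr fell and Fgb rose, and the sum of the list ran from 61663 to 82551 CPM in Het livers and from 75959 to 132113 CPM in KO livers. Calls on the remaining lists were 1 rise among 3 neutrophil markers (S100a8), 1 fall among 5 erythroid markers (Alas2) and none among 6 cholangiocyte and 7 lymphocyte markers. Of 8 rRNA and small RNA genes 2 rose (Rpph1 and Rmrp), and of 6 nuclear-retained RNAs 1 was called. The part of cell composition in the mitochondrial values was not tested.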

How the data were processed

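Total RNA of 12 livers was depleted of rRNA (TruSeq Stranded Total RNA, Ribo-Zero Gold) and sequenced as paired stranded reads. The authors ran the nf-core RNA-seq pipeline with STAR 2.7.9a on GRCm39 with GENCODE M34 and Salmon 1.10.1. The estimated counts per gene deposited by the authors were rounded to whole numbers for all main results, since 12% of the values are not whole. Length-scaled and scaled estimated counts and the TPM values deposited by the authors served as alternatives. Salmon divides reads that match several genes by a model, which bears on genes with near-identical copies.

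The filter kept 19350 of 57180 genes, those that reached 5 reads at the median library size in 3 or more livers. Counts were scaled by TMM and fitted in edgeR 4.0.16 (R 4.3.3) by its quasi-likelihood F test, with robust settings, a prior count of 2 and a mean for each of 4 groups, on all 12 livers. Contrasts were KO minus Het over both sexes and in each sex, their interaction, and males minus females. Genes were called at p under 0.05 after Benjamini-Hochberg adjustment over all genes tested. The 95% intervals come from the same fit. For each gene, p-values rest on 1 estimate of the spread between mice within groups, shared by all 12 livers (3 mice per group). DESeq2 1.42.0 and limma 3.58.1 on log2(TPM + 1) or log2(TPM + 0.1) were alternatives. The fit was tested on simulated data.

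Coordinates and gene lengths are from GENCODE M39, a later annotation of the same build. Nuclear copies of mitochondrial DNA were found with blastn 2.17.0+ (at least 100 bases and 90% identity, 14 hits). Adding each copy to its gene, and the ratios between mRNAs with their share over all gene pairs, were chosen after seeing the data. The members and lists were chosen with earlier results of these data known. Named were all mitochondrial genes, of each nuclear list the 3 genes with the smallest p and 5 central factors, and the nuclear copies with the highest counts, and further called list genes and nuclear subunits were named after their values were seen.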

Additional observations from a re-analysis of the deposited data

Results flagged for a closer look

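Each of the 17 tested mitochondrial genes was checked in the 6 Het and in the 6 KO livers for a liver far from the others, which made 34 groups of 6. A single value stood out. mt-Co1 in KO_F_108 was 12092 CPM, while the other 5 KO livers lay between 14187 and 15275 CPM, so that its gap to the nearest liver was 0.658 of the whole range. Chance flags about 1 in 20 such groups. KO_F_108 also had the lowest mt-Nd2 and mt-Co3 values of the 6 KO livers.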

How the results depend on the processing

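Over both sexes, 1 mitochondrial gene was called (mt-Nd2). The count was 0 with at least 10 reads in every liver, with RLE or upper quartile scaling, without robust estimation, with the older quasi-likelihood method and at an adjusted p under 0.01, and 3 with DESeq2. In males it was 3 with DESeq2. Leaving out each mouse in turn gave 0 to 2 over both sexes, with 0 in 10 of 12 cases and 2 (mt-Nd2 and mt-Nd3) without Het_F_126, and 0 in each of the 12 for females, males, interaction and sex. mt-Nd2 kept log2 fold changes from -0.42 to -0.30 in all 27 alternatives and was called in 12, with adjusted p from 0.0154 to 0.0970, and mt-Nd3 (-0.68 to -0.40) was called in 2 of 27. With a mouse left out, mt-Nd1 ranged from -0.074 to 0.15 and mt-Nd6 from -0.14 to 0.38, so both changed sign, and mt-Nd4l was 0.023 with its copy added. The cause was not tested. The other 10 mRNAs kept their sign in all alternatives run. The median of the 13 mRNAs was -0.21 to -0.12 under every setting, that of all genes 0.00 to 0.03. No paired analysis was possible because each mouse number occurs in only 1 group. The 22 tRNA genes had at most 50 counts per liver in all, too few to resolve small differences.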
